A study of Mus musculus with 8 samples.

Results

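The collagen genes are the mouse genes whose symbol is Col, a type number, the letter a and a chain number, each of which encodes 1 collagen chain. All 44 RefSeq protein-coding genes of that form were measured, among 19938 genes in all, and 42 of them read one probe set while Col6a5 and Col6a6 were each read by the brighter of 2. RNA came from 3134 cells, a mouse mammary tumour line obtained by transforming C127 cells of an RIII mouse, in which A-fos and the tetracycline-controlled transactivator tTA had been stably integrated. A-fos is a dominant negative partner of Jun proteins that stops AP-1 dimers from binding DNA, and in a Tet-Off line tetracycline silences it. The study asked how the dexamethasone response depends on AP-1.

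There were 4 groups of 2 arrays each: 4 h of 100 nM dexamethasone in the plus-titled arm, 0 h in the plus-titled arm, 4 h of dexamethasone in the no-titled arm, and 0 h in the no-titled arm. Cells of every group carried both transgenes and had been in charcoal-stripped serum for 48 h before hormone. No array came from cells left untreated for 4 h, so the hormone and the 4 h that passed cannot be told apart. A rise, fall or response with dexamethasone below means 4 h of dexamethasone against 0 h untreated. The arms are named by the words plus and no before tetracycline in the sample titles. The protocol text assigns tetracycline, 1 ug per ml, the other way round for each of the 8 samples, so no sign below says which arm made A-fos. The line is 1 integrated line, and the labels leave unstated whether the 2 arrays of a group came from separate cultures. The p-values therefore cover the spread among these arrays, which may be technical. Being bulk RNA, the values cannot tell fewer expressing cells from less RNA per cell.

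Collagens are assembled from chains that wind around one another into a rigid helix, and the kind of chain decides the structure. Fibrillar collagens such as types I, III and V form the cable-like fibrils of connective tissue, type IV forms the sheet-like network of basement membranes under epithelium and around fat and vessels, and type VI forms beaded filaments between them. Chains are hydroxylated and folded in the endoplasmic reticulum, trimmed by proteases outside the cell and crosslinked by lysyl oxidases. In the mammary gland the basement membrane lies between the epithelium and a stroma of fibrillar collagen.

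The level is the log2 signal of a gene's probe set, and differences are log2 differences. Genes were tested with limma in a single model over the 8 arrays, and a gene was called at a Benjamini-Hochberg adjusted p under 0.05 over the 19938 genes. All adjusted p-values below are from that model. Counts at an unadjusted p under 0.05 are given without the share of all genes at that cut, so none is read as high or low. As a yardstick for background, the 95th percentile of the mean level of 1027 olfactory receptor genes was 4.82. Of the 44 collagen genes 42 lay above it, against 65.5% of all genes, and 28 lay above it by more than 1. The 2 that did not were Col10a1, a chain of growth-plate cartilage, with a mean of 4.71, and Col12a1, a fibril-associated chain, with 4.65. Signals of different probe sets depend on their probes, so no ranking of the genes by amount is drawn from them.

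The labels give a mammary tumour as the origin of the line. Of 9 mesenchymal markers 8 lay above background, with Vim between 12.61 and 12.99 on the 8 arrays. Of 6 basal epithelial markers 5 lay above it, and of 6 luminal epithelial markers 4, namely Krt8, Krt18, Cdh1 and Esr1, while Epcam and Krt19 did not. Of the 5 endothelial, 5 leukocyte and 5 chondrocyte markers, 1, 2 and 1 lay above background. The leukocyte marker Cd3e had a higher mean than Oxtr, Krt5, Cdh1, Krt18 and Trp63. The counts alone are therefore not read as basal or luminal expression. Array medians lay between 5.36 and 5.47 and replicates correlated at 0.9932 to 0.9956 across genes. Replicate 1 of the untreated plus-titled group stood apart for the collagens: 25 of the 44 (56.8%) had their lowest value on it, against 20.4% of all genes, and 37 read lower there than in replicate 2, with a median difference over all 44 of -0.16.

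Over 7 comparisons, 6 collagen genes were called in at least 1 and 38 in none. The calls fell into 2 pairs of type IV genes and 2 single chains. Col4a1 and Col4a2, the chains of the common type IV network, rose with dexamethasone, and Col4a5 and Col4a6, chains of more restricted type IV networks, were higher in the plus-titled arm. Col1a2, the alpha-2 chain of type I collagen, and Col6a3, the alpha-3 chain of type VI, were lower in the plus-titled arm. Each of the 4 type IV genes lies next to its partner, on mouse chromosome 8 for Col4a1 and Col4a2 and on chromosome X for Col4a5 and Col4a6.

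The 2 called type IV pairs are each arranged head to head, so their promoter sequences are shown. The windows of Col4a1 and Col4a2 overlap by 78 bases, and those of Col4a6 and Col4a5 by 0. RefSeq start sites of Col4a1 and Col4a2 lie 21 bases apart, each inside the other gene, so the 2 annotated genes overlap at their starts. Those of Col4a6 and Col4a5 lie 1343 bases apart, with a gap between the genes. Each sequence holds 250 bases before and 50 bases after the start, on the gene's own strand, from RefSeq on GRCm38.p6. The windows are chr8:11312777-11313076 (minus strand) for Col4a1, chr8:11312555-11312854 (plus strand) for Col4a2, chrX:141474027-141474326 (minus strand) for Col4a6 and chrX:141475169-141475468 (plus strand) for Col4a5. In the first pair, capitals mark the 78 bases that the 2 windows share, read from opposite strands. In the second pair, capitals mark CCAAT boxes (CCAAT) and GC boxes (GGGCGG), on either strand.
Col4a1: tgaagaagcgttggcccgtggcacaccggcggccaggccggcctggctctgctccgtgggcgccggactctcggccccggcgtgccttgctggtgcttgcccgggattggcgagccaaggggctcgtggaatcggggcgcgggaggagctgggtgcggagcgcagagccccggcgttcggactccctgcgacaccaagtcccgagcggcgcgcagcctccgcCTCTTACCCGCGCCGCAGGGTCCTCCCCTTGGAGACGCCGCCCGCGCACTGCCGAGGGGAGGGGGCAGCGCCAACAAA
Col4a2: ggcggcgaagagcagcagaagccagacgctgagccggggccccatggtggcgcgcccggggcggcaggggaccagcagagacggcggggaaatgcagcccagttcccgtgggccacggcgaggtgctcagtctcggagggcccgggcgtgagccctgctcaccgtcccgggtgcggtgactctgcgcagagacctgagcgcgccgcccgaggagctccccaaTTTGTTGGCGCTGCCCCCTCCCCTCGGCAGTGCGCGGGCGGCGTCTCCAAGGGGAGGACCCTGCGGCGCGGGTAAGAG
Col4a6: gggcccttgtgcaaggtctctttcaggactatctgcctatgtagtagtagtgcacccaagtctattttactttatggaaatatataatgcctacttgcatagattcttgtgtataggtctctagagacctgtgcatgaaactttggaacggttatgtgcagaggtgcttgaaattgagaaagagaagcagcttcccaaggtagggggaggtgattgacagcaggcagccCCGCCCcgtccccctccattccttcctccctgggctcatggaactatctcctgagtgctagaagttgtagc
Col4a5: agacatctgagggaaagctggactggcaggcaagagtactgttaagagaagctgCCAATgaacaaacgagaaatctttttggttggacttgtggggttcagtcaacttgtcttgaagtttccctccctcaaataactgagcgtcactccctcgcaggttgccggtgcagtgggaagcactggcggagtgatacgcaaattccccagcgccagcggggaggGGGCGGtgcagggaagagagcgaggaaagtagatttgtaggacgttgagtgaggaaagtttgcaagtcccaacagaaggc

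The windows differ in base composition. The GC content was 74% for Col4a1 and 73.7% for Col4a2, against 48.3% for Col4a6 and 52.7% for Col4a5. Windows were found for 35 of the 44 collagen genes, 38 in all because some genes have several starts. Both strands of each window were searched for the AP-1 site TGAGTCA, which also reads TGACTCA, for AGAACA, the short element that each subunit of a glucocorticoid receptor dimer contacts, and for the inverted repeat of that element with a spacer of 3 bases. The AP-1 site was in 1 of the 38 windows (2.63%), that of Col6a1, against 5.2% of the 32851 windows of all genes. AGAACA was in 2 windows (5.26%), those of Col9a1 and Col20a1, against 19% of all, and the inverted repeat was in 0, against 0.00913% of all. None of the 6 called genes held any of these letters in its window, which says nothing of sites elsewhere. The GC box, searched after the sequences had been looked at, was in 60.5% of collagen windows against 35.7% of all, and CCAAT in 34.2% against 37.4%.

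After 4 h of dexamethasone the 2 neighbours Col4a1 and Col4a2 rose in the mean over the arms, and no other collagen gene was called. Col4a1 read 8.90 and 8.80 after dexamethasone against 8.25 and 8.21 at 0 h in the plus-titled arm. In the no-titled arm it read 8.76 and 8.62 after dexamethasone against 8.31 and 8.05 at 0 h. All 4 treated arrays lay above all 4 untreated ones. Col4a2 read 8.93 and 8.95 after dexamethasone against 8.40 and 8.38 at 0 h in the plus-titled arm, and 9.01 and 8.88 against 8.48 and 8.33 in the no-titled arm. Its groups did not overlap either.

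Averaged over the arms, Col4a1 rose by 0.56 ± 0.09 (log2, SE), or 1.48-fold (95% interval of the log2 value 0.37 to 0.75, adjusted p = 0.00422). Col4a2 rose by 0.54 ± 0.08, or 1.46-fold (0.37 to 0.71, adjusted p = 0.00267). These were 2 of the 44 collagen genes called in the mean response, against 2.96% of all genes, and both kept the call under all 15 other settings tried, the 8 fits that each left out an array among them. The median over the 44 genes was 0.01, with 15 below 0, beside 0.00 over all genes. Without replicate 1 of the untreated plus-titled group it was -0.03, with 31 below 0, so its sign rests on single arrays.

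Within single arms the same rises were close to the threshold. In the plus-titled arm Col4a1 rose by 0.62 ± 0.12 (adjusted p = 0.0388) and Col4a2 by 0.55 ± 0.11 (adjusted p = 0.0409), 2 of 44 collagen genes against 1.1% of all genes. In the no-titled arm Col4a2 rose by 0.54 ± 0.11 (adjusted p = 0.0384), 1 of 44 against 1.43% of all genes, and Col4a1 had 0.51 ± 0.12, which did not pass (adjusted p = 0.0865). Leaving out any 1 of the 8 arrays ended the plus-titled call of Col4a2 (adjusted p between 0.0653 and 0.268). The plus-titled call of Col4a1 was lost without any of that arm's 4 arrays or either treated no-titled array (0.0586 to 0.207), and the no-titled call of Col4a2 without any of that arm's 4 arrays or either treated plus-titled array (0.0656 to 0.346). In the fits that ended these 3 calls the values stayed between 0.46 and 0.67.

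The other type IV genes had smaller values. Col4a3 and Col4a4, chains of the glomerular and alveolar basement membrane that also neighbour each other, averaged 0.04 and 0.07 over the arms (95% intervals -0.15 to 0.23 and -0.14 to 0.28). Col4a5 had 0.02 (-0.15 to 0.18) and Col4a6 had 0.00 (-0.16 to 0.16). The intervals of both pairs end below those of Col4a1 and Col4a2, which start at 0.37.

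**Figure D1:**
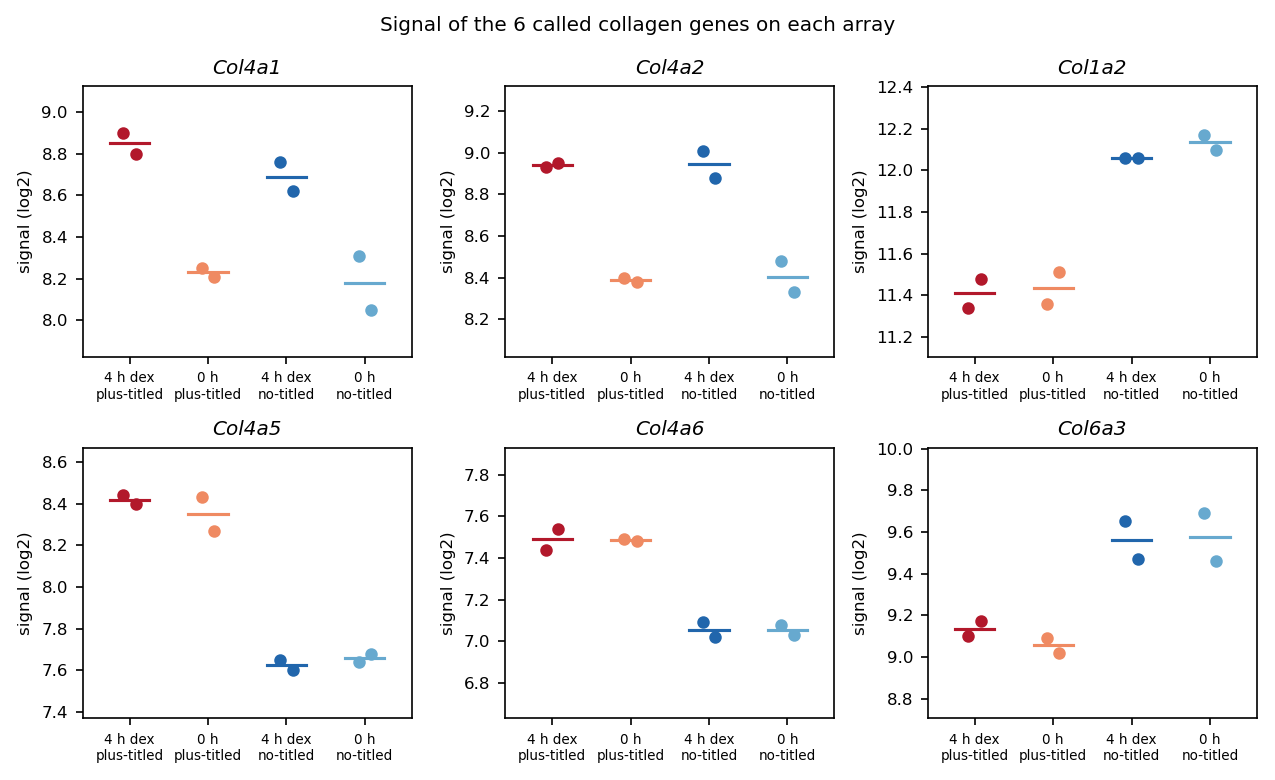
Level (log2 signal, vertical axis) of the 6 called collagen genes on each of the 8 arrays, by group along the horizontal axis; points are arrays and bars are means of the 2 arrays. Col4a1 and Col4a2 are higher in both treated groups than in both untreated ones, Col4a5 and Col4a6 are higher and Col1a2 and Col6a3 lower in both plus-titled groups, and every panel spans the same width of 1.3 log2 units.

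The fall nearest to a call was that of Col8a1, a short-chain collagen of vessel walls and the corneal endothelium's membrane. It read 7.93 and 7.89 after dexamethasone against 8.12 and 8.12 at 0 h in the plus-titled arm, and 7.59 and 7.86 against 8.09 and 8.08 in the no-titled arm. Every treated array lay below every untreated one. Its mean response of -0.29 ± 0.08 had an unadjusted p = 0.00582 in limma and did not pass (adjusted p = 0.123). With a variance trend and robust fitting it passed at adjusted p = 0.0452, in 1 of 15 other settings.

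The fibrillar genes showed no called response to dexamethasone, at 0 of 11 in limma in the mean over the arms (0 at an unadjusted p under 0.05), with values from -0.11 to 0.12. Col1a1, the alpha-1 chain of type I collagen, read 6.88 and 6.80 after dexamethasone against 6.89 and 7.0 at 0 h in the plus-titled arm, and 6.85 and 6.87 against 6.87 and 6.98 in the no-titled arm. The mean response was -0.09 (95% interval -0.25 to 0.08), an interval that leaves out a fall as large as the rise of Col4a1. Col3a1, the chain of type III collagen, had -0.11 (-0.30 to 0.09), Col5a1 and Col5a2, chains of type V that help to start fibrils, had 0.01 (-0.16 to 0.17) and -0.09 (-0.25 to 0.08), and Col1a2 had -0.05. The remaining fibrillar genes Col2a1, Col5a3, Col11a1, Col11a2, Col24a1 and Col27a1 lay between -0.02 and 0.12.

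Of the 6 type VI genes, Col6a1 to Col6a6, 0 were called with dexamethasone in limma, with mean responses between -0.11 and 0.03. Fibril-associated collagens decorate the surface of fibrils, and the mean responses of their 9 genes (Col9a1, Col9a2, Col9a3, Col12a1, Col14a1, Col16a1, Col19a1, Col20a1 and Col22a1) lay between -0.10 and 0.09. The 4 transmembrane genes lay between -0.02 and 0.05, and the 2 multiplexins Col15a1 and Col18a1, whose chains sit in basement membranes, at 0.02 and -0.11. Col7a1, the anchoring fibril chain of skin, had 0.01, Col8a2 had 0.04, and Col26a1 and Col28a1 had 0.09 and 0.03. In each of these classes except the short-chain one, 0 genes had an unadjusted p under 0.05 in limma.

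**Figure D2:**
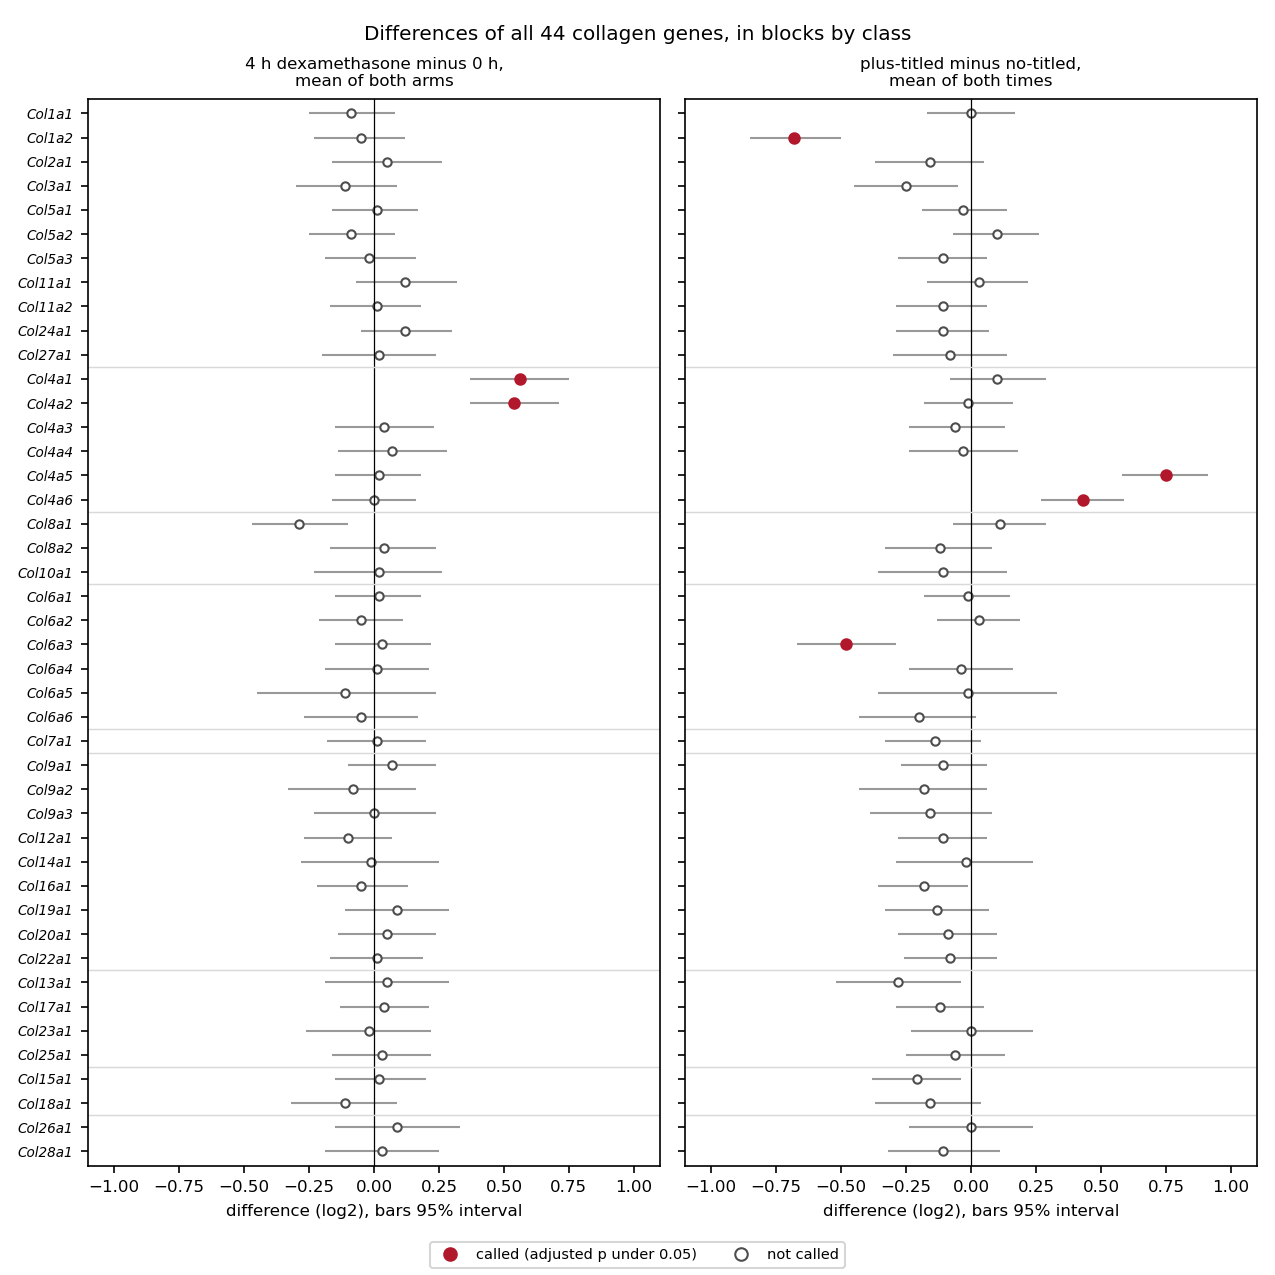
Difference of all 44 collagen genes (log2, horizontal axis, bars 95% intervals), as dexamethasone minus 0 h averaged over the arms on the left and plus-titled minus no-titled averaged over the times on the right; filled points were called. Col4a1 and Col4a2 are the 2 filled points on the left, and Col4a5, Col4a6, Col1a2 and Col6a3 the 4 on the right, with the other 38 genes within 0.3 of 0 in both panels.

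Col4a5 and Col4a6 were higher in the plus-titled arm at both times. Col4a5 read 8.44 and 8.40 at 4 h in the plus-titled arm against 7.65 and 7.60 in the no-titled arm, and 8.43 and 8.27 at 0 h against 7.64 and 7.68. Col4a6 read 7.44 and 7.54 at 4 h in the plus-titled arm against 7.09 and 7.02 in the no-titled arm, and 7.49 and 7.48 at 0 h against 7.08 and 7.03. For neither gene did any plus-titled array overlap a no-titled one.

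The difference of Col4a5 was 0.80 ± 0.11 at 4 h, or 1.74-fold (adjusted p = 0.00147), and 0.69 ± 0.11 at 0 h, or 1.62-fold (adjusted p = 0.00333). It held its call under all 16 other settings at each time. Col4a6 had 0.43 at 4 h, or 1.35-fold (adjusted p = 0.0251), and 0.43 ± 0.10 at 0 h (adjusted p = 0.029). Each call of Col4a6 was lost without any 1 of the 4 arrays compared, with adjusted p between 0.0716 and 0.16 at 4 h and between 0.0676 and 0.168 at 0 h. Over both times Col4a6 had 0.43 ± 0.07 (adjusted p = 0.00217) and Col4a5 0.75 ± 0.08, or 1.68-fold (adjusted p = 0.000101), and these calls held in all 15 other settings. Over both times the other type IV genes had 0.10 (Col4a1, 95% interval -0.08 to 0.29), -0.01 (Col4a2, -0.18 to 0.16), -0.06 (Col4a3) and -0.03 (Col4a4).

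Col1a2 was lower in the plus-titled arm. It read 11.34 and 11.48 at 4 h in the plus-titled arm against 12.06 and 12.06 in the no-titled arm, and 11.36 and 11.51 at 0 h against 12.17 and 12.10. The arms did not overlap at either time. The difference was -0.65 at 4 h (0.638-fold, adjusted p = 0.00506) and -0.70 ± 0.11 at 0 h (0.614-fold, adjusted p = 0.00364), called under all 16 other settings at each time. Over both times it was -0.68 ± 0.08 (adjusted p = 0.000224).

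Col1a1, whose chain pairs with that of Col1a2 in type I collagen, was not called. Its arm difference over both times was 0.00 (95% interval -0.17 to 0.17). The level of Col1a2 minus that of Col1a1, taken within each array, averaged 4.53 ± 0.10 in the plus-titled arm and 5.21 ± 0.07 in the no-titled arm (log2, SD, n = 4 arrays each), a shift of -0.68. Its size within an array reflects the probes, and only the shift between arms is read. An exact permutation test over the 4 arrays against 4 (two-sided) gave p = 0.0286, the smallest such a design allows, and 0.0572 after adjustment over the 4 differences of this kind computed, which were picked after the values had been seen.

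Col6a3 was also lower in the plus-titled arm, with 9.10 and 9.17 at 4 h against 9.65 and 9.47 in the no-titled arm, and 9.09 and 9.02 at 0 h against 9.69 and 9.46. The arms did not overlap. The difference was -0.43 ± 0.12 at 4 h (0.743-fold, adjusted p = 0.0494) and -0.53 ± 0.12 at 0 h (0.695-fold, adjusted p = 0.0222), and over both times -0.48 ± 0.09 (0.719-fold, adjusted p = 0.00283). The call at 4 h was lost without any 1 of the 8 arrays (adjusted p between 0.0537 and 0.289), and that at 0 h without either untreated plus-titled array (0.0568 and 0.0824) or replicate 1 of the untreated no-titled group (-0.41, 0.185). The value over both times was called under all 15 other settings.

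Its partners in type VI collagen were not called. Col6a1 read 8.97 and 9.03 at 4 h in the plus-titled arm against 9.04 and 8.99 in the no-titled arm, and 9.0 and 8.97 at 0 h against 9.04 and 8.95, a range of 0.09 over the 8 arrays and the smallest of any collagen gene. Over both times the arm difference was -0.01 for Col6a1 (95% interval -0.18 to 0.15) and 0.03 for Col6a2 (-0.13 to 0.19). Col6a3 minus the mean of Col6a1 and Col6a2 averaged 0.68 ± 0.08 in the plus-titled arm and 1.16 ± 0.10 in the no-titled arm (log2, SD, n = 4 arrays each), a shift of -0.49 with exact permutation p = 0.0286 and 0.0572 after adjustment. That p is again the smallest such a design allows. With partners this flat the shift restates the arm difference of Col6a3, already seen, and adds no separate support.

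**Figure D3:**
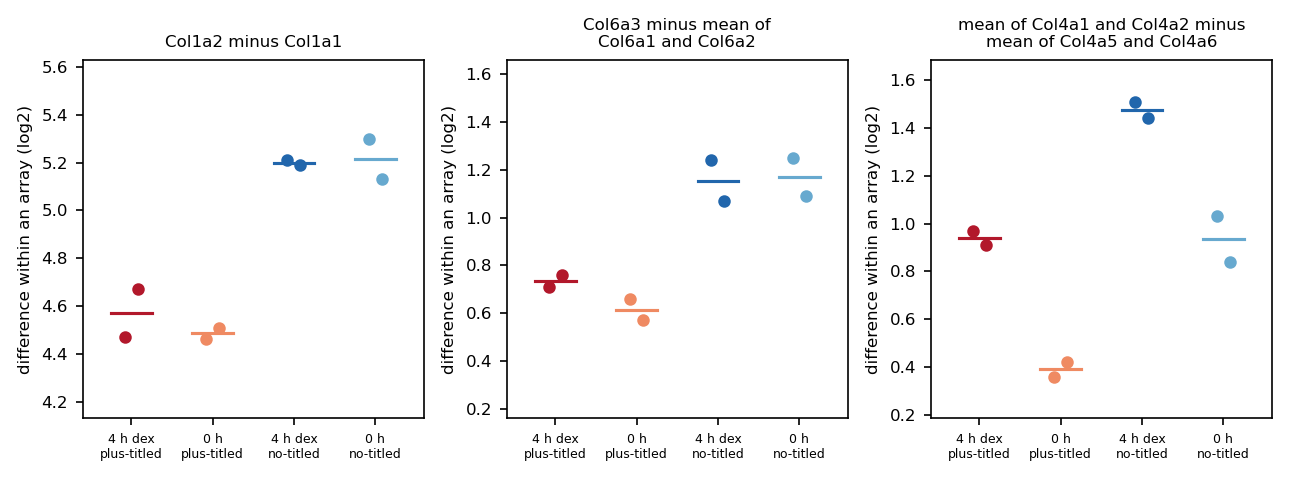
Difference between the levels of partner chains within each array (log2, vertical axis) by group; points are arrays and bars are means of the 2 arrays. Col1a2 minus Col1a1 and Col6a3 minus its 2 partners separate the arms. The mean of Col4a1 and Col4a2 minus that of Col4a5 and Col4a6 is higher at 4 h of dexamethasone than at 0 h in each arm. It is also higher in the no-titled arm at each time.

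The 2 type IV pairs were also set against each other. The mean of Col4a1 and Col4a2 minus the mean of Col4a5 and Col4a6 averaged 1.21 ± 0.31 on dexamethasone arrays and 0.66 ± 0.32 on untreated arrays (log2, SD, n = 4 arrays each). The shift of 0.54 gave exact permutation p = 0.0857, and 0.114 after adjustment. The reverse difference averaged -0.66 ± 0.32 in the plus-titled arm and -1.21 ± 0.32 in the no-titled arm, a shift of 0.54 with exact permutation p = 0.114, also 0.114 after adjustment. Each set of 4 arrays mixes both levels of the other factor, which widens its SD, and the permutation did not take that factor into account. These p-values therefore do not measure the shift within an arm or within a time. In the plus-titled arm the first difference was 0.97 and 0.91 on dexamethasone arrays against 0.36 and 0.42 on untreated ones. In the no-titled arm it was 1.51 and 1.44 against 1.03 and 0.84.

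At each time 4 of the 44 collagen genes were called between the arms, 2 higher and 2 lower, or 9.09%, against 9.61% of all genes at 4 h and 9.38% at 0 h. Over both times it was again 4, against 18.8% of all genes. At each time the share of collagen genes called was thus near that of all genes.

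Most collagen genes leaned slightly below 0 between the arms, and that lean moved with single arrays at each time. At 0 h 35 of 44 were below 0, with a median of -0.13, against a median of -0.02 over all genes, of which 53.6% were below 0. At 4 h 32 of 44 were below 0, with a median of -0.05 beside -0.01. Without replicate 1 of the untreated plus-titled group, the array on which most collagens read lowest, the median at 0 h was -0.03 with 25 below 0. Without replicate 2 of that group it was -0.25 with 37 below 0. All 9 fibril-associated genes were below 0 at 0 h, from -0.29 to -0.12, and 0 of them were called in limma (1 at an unadjusted p under 0.05). That count of 9 also rested on replicate 1 of the untreated plus-titled group. Col14a1 read 4.60 there and 5.18 in replicate 2, against 5.04 and 5.09 in the untreated no-titled group.

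Among genes not called between the arms, the fibrillar gene Col3a1 read 6.47 and 6.36 at 4 h in the plus-titled arm against 6.61 and 6.63 in the no-titled arm, and 6.31 and 6.64 at 0 h against 6.72 and 6.81. The plus-titled arrays lay below the no-titled ones at 4 h and at 0 h, with 1 untreated plus-titled array inside the no-titled range when times were pooled. Over both times the difference was -0.25 (95% interval -0.45 to -0.05) and did not pass (adjusted p = 0.0849). Without replicate 2 of the untreated plus-titled group it passed, at -0.33 (adjusted p = 0.021), as did Col13a1 (-0.37, adjusted p = 0.0464) and Col9a3 (-0.28, adjusted p = 0.0444). Col3a1 passed also when genes below the background level were left out (adjusted p = 0.0435), as did the multiplexin Col15a1 at -0.21 (adjusted p = 0.0469).

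Type V genes showed small arm differences, -0.03 for Col5a1 (95% interval -0.19 to 0.14) and 0.10 for Col5a2 (-0.07 to 0.26). Col5a2, which neighbours Col3a1 on chromosome 1, thus had a value of the other sign from its neighbour. The cartilage genes Col2a1, Col9a1, Col9a2, Col9a3, Col11a1 and Col11a2 were not called in any comparison, and of 5 chondrocyte markers only the transcription factor gene Sox9 lay above background. Sox9, a regulator of cartilage collagens, was itself lower in the plus-titled arm, at -0.39 at 4 h (adjusted p = 0.036) and -0.38 at 0 h (adjusted p = 0.0413). The call at 0 h was lost without any 1 of the 8 arrays (adjusted p between 0.0616 and 0.194), and that at 4 h without any array other than the 2 untreated plus-titled ones (0.0663 to 0.163). The transmembrane genes Col13a1, Col17a1, Col23a1 and Col25a1 lay between -0.28 and 0.00 over both times, and the fibril-associated genes between -0.18 and -0.02.

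**Figure D4:**
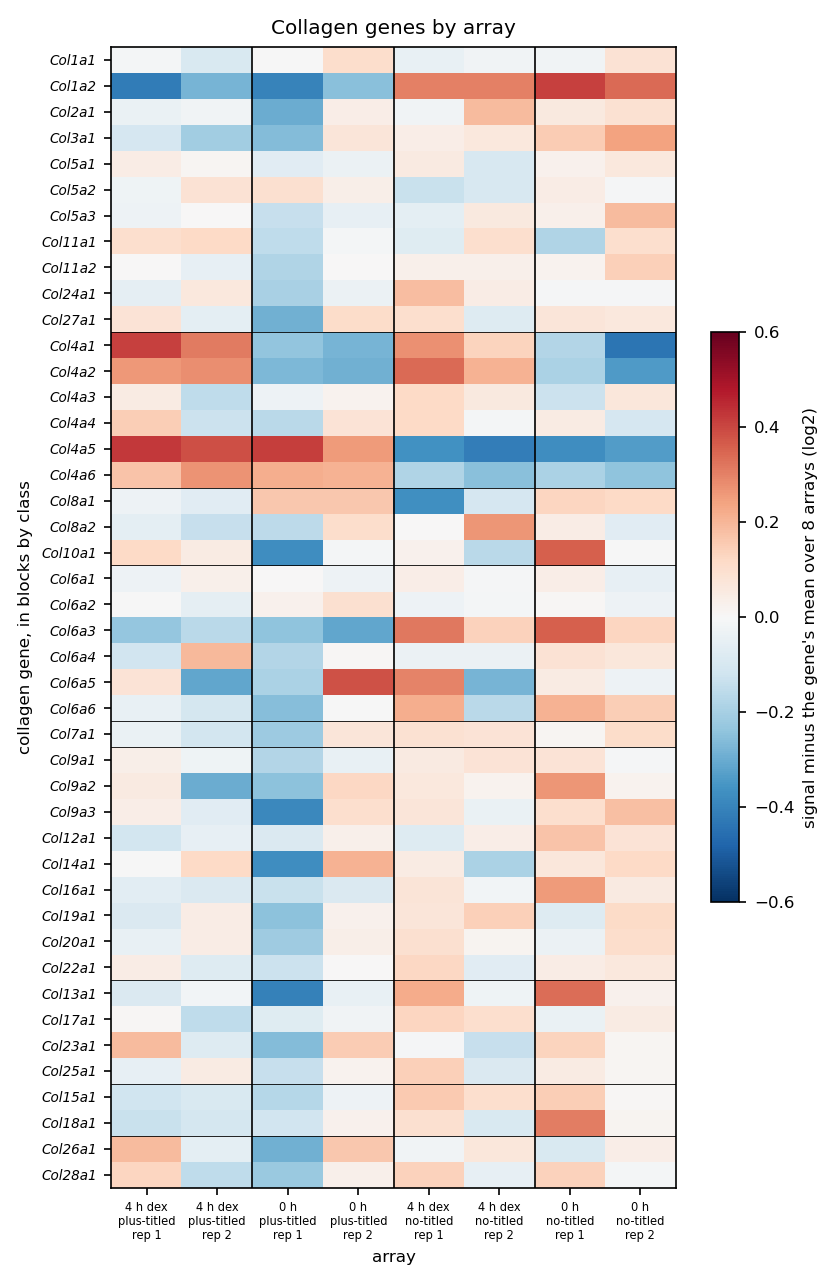
Level of the 44 collagen genes on each of the 8 arrays, as the difference from the gene's mean over the arrays (log2, colour), with genes in blocks by class and arrays in groups. The rows of Col1a2, Col6a3, Col4a5 and Col4a6 change colour between the arms and those of Col4a1 and Col4a2 between 4 h and 0 h, while replicate 1 of the untreated plus-titled group is a blue column through most other genes.

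Whether the dexamethasone response of a collagen gene differed between the arms was tested as a difference of responses. No collagen gene was called, against 0.00502% of all genes, or 1 gene, and 1 collagen gene had an unadjusted p under 0.05 in limma. For Col4a1 the difference of responses (plus-titled minus no-titled) was 0.11 (95% interval -0.27 to 0.49) and for Col4a2 it was 0.01 (-0.33 to 0.35), wide beside responses of 0.51 to 0.62. The smallest p-values belonged to Col10a1, with 0.52 ± 0.22 (SE, limma adjusted p = 0.961), and Col6a4, with 0.24 (limma adjusted p = 0.997). Col10a1 lies under the background level, with 4.83 and 4.76 after dexamethasone against 4.34 and 4.70 at 0 h in the plus-titled arm, and 4.74 and 4.55 against 5.07 and 4.71 in the no-titled arm.

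Genes that modify, crosslink, bind and degrade collagen were taken as 7 lists. Their counts stand beside 2.96% of all genes called in the mean dexamethasone response, 9.61% between the arms at 4 h, 9.38% at 0 h and 18.8% over both times. Of 4 measured crosslinking genes, the lysyl oxidases, 2 rose in the mean dexamethasone response and 2 were lower in the plus-titled arm over both times. Lox read 8.95 and 8.86 after dexamethasone against 7.67 and 7.61 at 0 h in the plus-titled arm, and 9.66 and 9.69 against 9.28 and 9.27 in the no-titled arm. It was the lowest in untreated plus-titled cells and rose there by 1.27 ± 0.10 (adjusted p = 0.000147), while the no-titled value of 0.40 did not pass (adjusted p = 0.127). Lox was lower in the plus-titled arm, at -0.77 at 4 h (adjusted p = 0.00145) and -1.64 at 0 h (adjusted p = 2.92e-05).

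Loxl3, another lysyl oxidase, read 8.54 and 8.41 after dexamethasone against 8.02 and 7.86 at 0 h in the plus-titled arm, and 8.93 and 8.87 against 7.62 and 7.44 in the no-titled arm. It rose by 1.37 ± 0.12 in the no-titled arm (adjusted p = 0.000105), and the plus-titled value of 0.53 did not pass (adjusted p = 0.0716). The differences of the responses, 0.87 for Lox and -0.84 for Loxl3, did not pass (adjusted p = 0.197 and 0.36), so the arms are not shown to differ in either. Loxl3 was lower in the plus-titled arm at 4 h, at -0.43 (adjusted p = 0.0448), a call lost without any of the 4 arrays compared or either untreated no-titled array (0.0602 to 0.241). Loxl1, which acts on elastic fibres, was lower in the plus-titled arm, at -0.96 at 4 h (adjusted p = 0.000651) and -0.92 at 0 h (adjusted p = 0.000939).

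Of 8 collagen receptor genes, Itga1 and Ddr1 were higher in the plus-titled arm at both times. Itga1, which encodes the alpha-1 integrin subunit that binds type IV collagen, read 6.65 and 6.83 at 4 h in the plus-titled arm against 5.03 and 4.65 in the no-titled arm, and 6.75 and 6.76 at 0 h against 4.97 and 4.29. The no-titled arrays thus lay around the background level of 4.82. With the arrays under that level raised to it, Itga1 was at least 3.51-fold higher at 4 h (measured difference 1.90, adjusted p = 0.000449) and at least 3.64-fold higher at 0 h (measured difference 2.13, adjusted p = 0.000349). Ddr1, a receptor tyrosine kinase activated by collagen, had 0.85 at 4 h (adjusted p = 0.00337) and 1.21 at 0 h (adjusted p = 0.000711). Itgb1, the beta subunit that pairs with the product of Itga1, was higher over both times by 0.35 (adjusted p = 0.00658). With dexamethasone 0 receptor genes were called in limma, and 1 in the plus-titled arm, with 0 in the other, had an unadjusted p under 0.05. The smallest p-values belonged to Ddr1 in the plus-titled arm (-0.34, adjusted p = 0.402) and Itga10 in the no-titled arm (0.27, adjusted p = 0.577).

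Of 8 fibril-binding proteoglycan genes 3 were higher in the plus-titled arm at both times, against 9.61% of all genes called in either direction at 4 h and 9.38% at 0 h. Ogn, which encodes osteoglycin, read 7.69 and 7.98 at 4 h in the plus-titled arm against 5.39 and 6.09 in the no-titled arm, and 7.69 and 7.48 at 0 h against 5.41 and 5.44. The difference was 2.10 at 4 h (adjusted p = 0.00028) and 2.16 at 0 h, or 4.47-fold (adjusted p = 0.000288). Fmod, which encodes fibromodulin, read 5.26 and 5.38 at 4 h in the plus-titled arm against 4.10 and 4.39 in the no-titled arm, both under the background level, and 5.76 and 5.37 at 0 h against 4.50 and 4.85. With the arrays under that level raised to it, Fmod was at least 1.41-fold higher at 4 h and at least 1.66-fold higher at 0 h. Prelp, another such proteoglycan, had 1.04 at 4 h and 0.86 at 0 h. The calls of Prelp were lost without any 1 of the untreated arrays at 0 h (adjusted p between 0.0642 and 0.188), and at 4 h without replicate 1 of the treated no-titled group (0.103) or replicate 2 of the treated plus-titled group (0.0916). That of Fmod at 0 h was lost without replicate 1 of either untreated group (adjusted p = 0.0594 and 0.0815). With dexamethasone 0 genes of that list were called in limma (1 in each arm at an unadjusted p under 0.05). The nearest were Kera in the plus-titled arm (0.32, adjusted p = 0.432) and Fmod in the no-titled arm (-0.43, adjusted p = 0.419). Kera lay under the background level, with a mean of 3.83.

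Of 19 measured genes for chain modification and folding, Plod2 and Fkbp14 were higher in the plus-titled arm at both times. Plod2, a lysyl hydroxylase that prepares crosslinking, had 0.73 at 4 h (adjusted p = 0.00263) and 0.50 at 0 h (adjusted p = 0.0175). Fkbp14, a prolyl isomerase of the endoplasmic reticulum, had 0.82 at 4 h (adjusted p = 0.00738) and 0.90 at 0 h (adjusted p = 0.00491), and rose by 0.54 with dexamethasone in the mean over the arms (adjusted p = 0.0214), with 0.49 in the plus-titled and 0.58 in the no-titled arm, neither of which passed (adjusted p = 0.234 and 0.129). The call of that mean was lost without any 1 of 6 arrays (adjusted p between 0.0632 and 0.0934) and held without replicate 1 of either treated group. The Plod2 call at 0 h was lost without any 1 of the 4 untreated arrays (adjusted p between 0.0505 and 0.143), and the Fkbp14 call at 4 h without replicate 1 of the treated no-titled group (0.0754) or replicate 2 of the treated plus-titled group (0.0708). Serpinh1, the collagen chaperone HSP47, was lower in the plus-titled arm over both times, at -0.38 (adjusted p = 0.0118). Leaving out replicate 2 of either no-titled group ended that call (0.0501 and 0.0521). The other 16 genes of that list were not called over both times.

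Of 7 measured propeptide-processing genes, Pcolce2, an enhancer of procollagen trimming, was lower in the plus-titled arm, at -0.85 at 4 h and -0.78 at 0 h, the last lost without replicate 1 of the untreated no-titled group (-0.71, adjusted p = 0.0621). Its relative Pcolce was higher at 0 h by 0.42 (adjusted p = 0.0384), a call lost without either untreated no-titled array, either treated no-titled array or replicate 2 of the untreated plus-titled group (adjusted p between 0.0599 and 0.196). Bmp1, the procollagen C-proteinase, was higher over both times by 0.30, a call lost without replicate 2 of either no-titled group or replicate 1 of either plus-titled group (adjusted p between 0.0501 and 0.101). With dexamethasone 0 genes of that list were called in limma (1 in each arm at an unadjusted p under 0.05). The smallest p-values belonged to Tll1 (0.29 in the plus-titled arm, adjusted p = 0.398) and Adamts14 (0.31 in the no-titled arm, adjusted p = 0.35). Tll1 lay under the background level, with a mean of 3.97.

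Of 5 collagenase genes 0 were called between the arms in limma (0 at an unadjusted p under 0.05). The smallest in p were Mmp2 at -0.22 at 4 h (adjusted p = 0.327) and Mmp8 at -0.08 at 0 h (adjusted p = 0.829). Mmp8 lay under the background level, with a mean of 3.01. Mmp14, a membrane-bound collagenase, fell by 0.40 with dexamethasone in the mean over the arms (adjusted p = 0.0167), though neither arm alone passed. That call was lost without any 1 of the 4 treated arrays or replicate 1 of the untreated no-titled group (adjusted p between 0.0525 and 0.0975). It read 9.21 and 9.18 after dexamethasone against 9.54 and 9.60 at 0 h in the plus-titled arm, and 9.19 and 9.15 against 9.66 and 9.51 in the no-titled arm, without overlap.

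The other genes of the basement membrane were not called with dexamethasone. Of 11 partner genes of type IV collagen, among them laminin and nidogen chains, 0 passed in limma in either arm or in the mean (1 at an unadjusted p under 0.05 in the mean), and the median mean response was -0.02. The smallest p belonged to Lamb1, a laminin chain, with -0.23 (adjusted p = 0.182). Between the arms 0 were called in limma at single times. At an unadjusted p under 0.05 there were 3 at 4 h and 6 at 0 h, without the share of all genes at that cut to set beside them. Nid1, which links laminin to type IV collagen, was nearest with 0.44 at 4 h (adjusted p = 0.051) and 0.43 at 0 h (adjusted p = 0.0567). Over both times Nid1 (0.44), Lamb1 (0.26) and Lamb2 (0.28) were higher in the plus-titled arm, 3 of 11 against 18.8% of all genes. The call of Nid1 held without each array in turn. That of Lamb1 was lost without any array other than replicate 2 of the untreated plus-titled group (adjusted p between 0.068 and 0.114), and that of Lamb2 without any other than replicate 1 of the untreated or replicate 2 of the treated plus-titled group (0.0636 to 0.106).

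In the difference of the dexamethasone responses 0 genes of any of the 7 lists were called in limma. Apart from Lox, the smallest p-values in their lists belonged to Plod2 (0.23), Tll1 (0.29), Ddr1 (-0.36), Kera (0.35), Mmp2 (-0.20) and Pxdn (-0.21), and outside the crosslinking list adjusted p was at least 0.992, with 0 genes at an unadjusted p under 0.05.

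**Figure D5:**
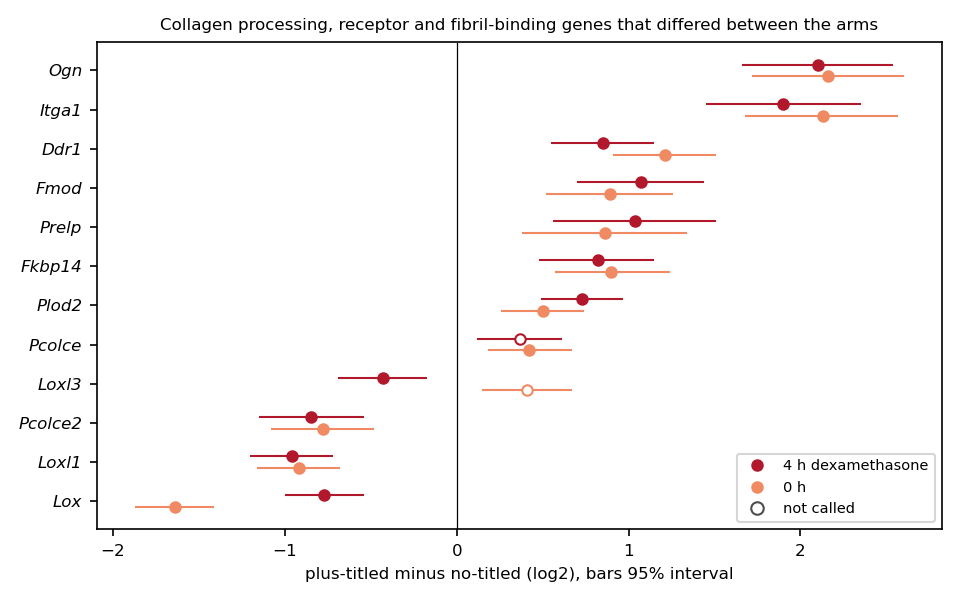
Difference of the arms (log2, plus-titled over no-titled, horizontal axis, bars 95% intervals) at 4 h of dexamethasone and at 0 h for the collagen-modifying, crosslinking, receptor and fibril-binding genes that were called at 1 time or both; open points were not called. Ogn and Itga1 lie near 2 at both times, Lox lies at -0.77 at 4 h and -1.64 at 0 h, and Loxl3 lies on opposite sides of 0 at the 2 times.

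Cell type markers moved between the arms beside the collagens. At 4 h 2 of 9 mesenchymal and 2 of 6 basal epithelial markers were called, against 9.61% of all genes, and at 0 h 3 and 2, against 9.38%. Over both times 5 of 9 and 3 of 6 were called, against 18.8%. The mean level of the mesenchymal list on single arrays lay at 8.09 to 8.22 in treated plus-titled, 8.26 to 8.33 in untreated plus-titled, 8.18 to 8.21 in treated no-titled and 8.35 to 8.37 in untreated no-titled cells. Within each arm the treated arrays lay below the untreated ones in this list mean, though not for every marker. In the plus-titled arm Pdgfrb had the largest fall, to a mean of 8.84 from 9.59 at 0 h. Thy1 and S100a4 had higher means there after dexamethasone (5.82 against 5.66, and 9.85 against 9.70), and the other markers had smaller falls. Krt14, a basal keratin, was lower in the plus-titled arm, at -1.41 at 4 h (adjusted p = 0.000771) and -1.39 at 0 h. Acta2, smooth muscle actin, was higher by 1.45 at 4 h (adjusted p = 0.0436) and 1.66 at 0 h. Its plus-titled replicates lay far apart, at 7.87 and 6.63 at 4 h and 8.15 and 6.96 at 0 h, and without replicate 1 of the treated or of the untreated plus-titled group the difference was 0.83 at 4 h (adjusted p = 0.26) or 1.07 at 0 h (adjusted p = 0.175). Each call was also lost without either no-titled array of its own time (adjusted p between 0.101 and 0.195), and that at 4 h was also lost without either untreated no-titled array (0.0568). Pdgfra, a receptor of fibroblasts, was higher by 0.59 at 4 h, a call lost without any 1 of the 4 arrays compared (0.0542 to 0.0784), and by 0.88 at 0 h, and S100a4 was lower, at -0.86 and -1.05. Over both times Vim (-0.30), Fn1 (-0.34) and Krt17 (-0.31) were also lower and Pdgfrb (0.41) higher, the calls of Vim and Krt17 being lost without 4 and 6 of the single arrays (adjusted p between 0.0521 and 0.134). Krt17 lay under the background level, with a mean of 4.67. Markers of luminal, endothelial and leukocyte cells were called at neither time. With dexamethasone 2 of 9 mesenchymal markers fell in the mean over the arms, against 2.96% of all genes, Pdgfrb by 0.63 (adjusted p = 0.00287) and Twist1 by 0.34 (adjusted p = 0.0408). The call of Twist1 was lost without any array other than replicate 2 of the untreated plus-titled group (adjusted p between 0.0739 and 0.174). Pdgfrb had -0.75 in the plus-titled arm (adjusted p = 0.0191), a call lost without either untreated array or replicate 2 of the treated arrays of that arm (0.0907 to 0.201), and -0.52 in the no-titled arm (adjusted p = 0.0992). The difference of those responses, -0.22, did not pass (adjusted p = 0.997). The part of these markers in the collagen differences was not tested.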

How the data were processed

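RNA of 8 samples (4 groups, 2 arrays each) had been hybridised to Affymetrix arrays. The values are the authors' deposited log2 expression values for 28888 probe sets. Per the submitters' processing notes they were made with RMA in Affymetrix Expression Console, with versions not given in the sources used here. That method equalises the arrays' distributions, hides a shift of most genes together and compresses changes of dim genes.

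Probe sets were named by the array's annotation, with symbols looked up by gene number in RefSeq (21698 found). Of the probe sets 21789 had 1 symbol, 1621 several and 5478 none. The brightest probe set stood for each of the 19938 genes, of which 999 had several, and no filter was set on level.

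Differences were tested 2-sided with limma 3.58.1 in R 4.3.3 (lmFit, eBayes, 4 residual and 6.64 prior degrees of freedom, prior SD 0.127), with Benjamini-Hochberg adjustment. The number of arrays limits the precision. In data simulated with the means of the 19938 genes, the no-titled dexamethasone comparison called 29.9% of genes changed 1.5-fold and 94% of those changed 2-fold. The difference of responses called 4.48% and 62.7%. Each simulation changed 67 genes 1.5-fold, 67 genes 2-fold and 66 genes 4-fold, in independent noise and with no other effect. The adjusted cut depends on how many genes change. These shares may therefore not hold for the real difference of responses, where 1 gene was called.

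The members, lists and comparisons were chosen with earlier results of these data known. Every called collagen gene, 8 fixed collagen genes, and up to 4 called genes of each companion list (or that with the smallest p) were named, and the neighbour and partner-chain views were added after the values were seen. Alternatives were a variance trend with robust fitting, a replicate block, a fit on only the arrays compared, cyclic loess or median centring, dim genes left out, other rules for choosing probe sets and each array left out.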

Additional observations from a re-analysis of the deposited data

How the results depend on the processing

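No called difference of a gene named in the text reversed its sign under any setting in which it was fitted, and the calls of the 6 collagen genes over both arms or both times held in all of them. The collagen genes' median did turn: in the mean dexamethasone response it was -0.03 without replicate 1 of the untreated plus-titled group and -0.01 without replicate 1 of the treated no-titled group, where the main value was 0.01. Single genes also lost calls: with cyclic loess Vim (-0.18), Krt17 (-0.26) and Lamb1 (0.21) over both times and Col4a6 (0.36) and Prelp (0.79) at 0 h, and with median centring Col6a3 (-0.43) and Loxl3 (-0.43) at 4 h and Sox9 at both times (-0.38 at 4 h, -0.35 at 0 h). The settings for cell type markers and for companion genes averaged over arms or times were added after the values were seen. Counts of calls moved more. Collagen genes called with dexamethasone in the no-titled arm numbered 2 with a variance trend and robust fitting, 2 with dim genes left out and 0 with only the arrays compared, where the main count was 1. In the plus-titled arm they numbered 0 with only the arrays compared and 0 with median centring, where the main count was 2. Over all genes, trend and robust fitting gave 370 calls for the plus-titled response and 461 for the no-titled one, against 220 and 285. For the difference of responses it gave 11, leaving out dim genes 7 and median centring 2 (50% higher), against 1 (0% higher). For these changes the cause was not tested, other than that fewer arrays or genes entered some fits.

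Leaving out each array in turn gave 0 to 1 collagen calls with dexamethasone in the no-titled arm, 0 to 1 in the plus-titled arm, 2 to 4 between the arms at 0 h, 2 to 3 at 4 h and 4 to 7 over both times. Over all genes it gave 134 to 291 calls in the no-titled arm, 80 to 187 in the plus-titled arm, 331 to 527 in the mean response, 589 to 1642 between the arms at 0 h, 654 to 2128 at 4 h, and 0 to 2 for the difference of responses.

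Over all genes, same-numbered arrays of 2 groups deviated from their group means with correlations of -0.02 to 0.13. Such low values cannot settle whether replicate numbers pair the samples, since noise in most genes could hide a shared effect in some. Acta2, for instance, read higher in replicate 1 than in replicate 2 in each group. It is 1 gene, and the share of all genes that did so was not counted, so it does not show pairing either. With the replicate number as a block, 276 genes were called with dexamethasone in the no-titled arm, 222 in the plus-titled arm, 2028 between the arms at 0 h, 2108 at 4 h, 598 in the mean response, 4031 over both times and 1 for the difference of responses. Collagen calls numbered 1, 2, 4, 4, 2, 4 and 0 in the same order. Differences of about 1.5-fold, the size of the type IV rises, lie near what 2 arrays a group can show.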
